A study of Rattus norvegicus with 12 samples.

Results

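The transforming growth factor beta (TGF-beta) family members described here are the ligands, the latent binding proteins and the receptors, 10 listed genes: Tgfb1, Tgfb2 and Tgfb3, Ltbp1 to Ltbp4, and Tgfbr1 to Tgfbr3. Their RNA was followed in newborn rat cardiomyocyte cultures given DEHP, the phthalate ester di(2-ethylhexyl) phthalate that softens medical tubing and other vinyl plastics. The members were chosen by gene symbol, with the differences between DEHP and vehicle on these same arrays already known, so their values are given as a description and carry no p-value. Of the 10 genes, 9 had a probe set with 1 gene symbol, among 14324 genes measured in the series, and each of the 9 was read by 1 probe set. Tgfbr2, the type II receptor, is not analysed here.

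Hearts of Sprague-Dawley pups aged 2 days were digested, and the cells grew for 3 days on coverslips before 3 days of treatment. The groups were 0.1% dimethyl sulphoxide alone (vehicle) and DEHP at 1, 10 or 50 µg/ml in that same vehicle. Every one of the 4 groups had 3 arrays. All cells came from a single litter, so the spread between the 12 arrays is that between cultures of that litter. Each deposited value is a ratio to the median of its probe set over the 12 arrays, and it is given below as a log2 ratio, on which a value of 0 is that median. Ratios keep differences between arrays and lose the level of a gene, so no member is compared in level with another, and the labelled cell type could not be checked against the level of its markers. A larger ratio was taken to mean more RNA, which no source used here records. In RNA from a whole culture, fewer cells of a type and less RNA per cell cannot be told apart.

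TGF-beta is secreted as an inactive complex in which the cut propeptide still wraps the ligand. Latent TGF-beta binding proteins tie this complex to fibrillin and fibronectin fibres, from which integrins and proteases set the ligand free. The free ligand joins the type II receptor to the type I receptor, with the type III receptor betaglycan presenting it, and SMAD2 and SMAD3 carry the signal to the nucleus. In the heart the pathway is best known for driving fibroblasts to make scar matrix.

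At 50 µg/ml, Ltbp2, Ltbp1, Tgfb3, Ltbp4 and Tgfbr1 were lower than in vehicle, and Tgfbr3 was higher. The largest of these differences was that of Ltbp2, at 43.0% of the vehicle value, and Tgfbr3 stood at 1.58 times it. Tgfb1, Tgfb2 and Ltbp3 did not pass the threshold, which throughout is a limma p-value under 0.05 after Benjamini-Hochberg adjustment over all 14324 genes. The count was thus 1 member higher, 5 lower and 3 not past it, against 8.75% of all genes higher and 8.84% lower in that comparison. The members were picked with this contrast in view, and nothing is read from the count.

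Promoter sequences are shown for 3 of the 5 members that were lower at 50 µg/ml and for the 1 that was higher, since they moved in opposite directions under the same treatment. Those of Ltbp4 and Tgfbr1, also lower, are not shown. All are from RefSeq on the GRCr8 rat assembly, run 5′ to 3′ on the strand of the gene, and cover 250 bases before to 50 bases after the annotated start. Ltbp1 lies at chr6:26177252-26177551 on the minus strand, and its capitals mark a cAMP response element (TGACGTCA). Ltbp2 lies at chr6:110257249-110257548 on the minus strand, and its capitals mark a GC box (GGGCGG). Tgfb3 lies at chr6:111456897-111457196 on the minus strand and has no capitals, because it held none of the motifs searched. Tgfbr3 lies at chr14:2634044-2634343 on the plus strand, and its capitals mark a GC box that reads on the other strand.
Ltbp1: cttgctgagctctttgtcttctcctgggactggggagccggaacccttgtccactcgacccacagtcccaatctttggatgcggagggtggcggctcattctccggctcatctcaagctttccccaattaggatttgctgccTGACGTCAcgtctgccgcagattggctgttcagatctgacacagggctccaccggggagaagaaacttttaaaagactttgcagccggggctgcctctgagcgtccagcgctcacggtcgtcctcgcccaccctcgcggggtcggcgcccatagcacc
Ltbp2: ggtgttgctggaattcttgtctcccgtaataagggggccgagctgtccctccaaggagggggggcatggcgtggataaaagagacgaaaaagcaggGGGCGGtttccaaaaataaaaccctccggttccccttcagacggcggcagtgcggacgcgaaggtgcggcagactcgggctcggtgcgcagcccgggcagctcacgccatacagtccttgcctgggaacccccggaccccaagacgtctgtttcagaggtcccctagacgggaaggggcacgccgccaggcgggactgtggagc
Tgfb3: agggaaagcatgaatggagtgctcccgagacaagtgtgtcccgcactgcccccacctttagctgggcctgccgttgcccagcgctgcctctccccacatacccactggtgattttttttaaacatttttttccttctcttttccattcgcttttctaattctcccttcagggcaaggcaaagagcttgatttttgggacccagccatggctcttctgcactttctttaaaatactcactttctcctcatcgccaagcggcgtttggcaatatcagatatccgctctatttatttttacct
Tgfbr3: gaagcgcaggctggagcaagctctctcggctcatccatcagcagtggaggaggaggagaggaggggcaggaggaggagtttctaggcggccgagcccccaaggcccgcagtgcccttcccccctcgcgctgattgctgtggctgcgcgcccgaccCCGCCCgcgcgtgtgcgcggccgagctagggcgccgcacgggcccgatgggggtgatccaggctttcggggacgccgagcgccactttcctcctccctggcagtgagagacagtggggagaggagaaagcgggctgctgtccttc

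The motif search covered both strands of the promoters of all 10 members. None held the AP-1 site TGANTCA, the SMAD element CAGACA or the SMAD palindrome GTCTAGAC, which occur in 7.33%, 21.1% and 0.197% of the 33469 rat promoters in the table. The cAMP response element was found in Ltbp1 alone, its first base at position -108 from the start, and 1.83% of all promoters hold it. The GC box was in 6 of the 10, Ltbp2, Ltbp3, Ltbp4, Tgfbr1, Tgfbr2 and Tgfbr3, against 33.1% of all promoters, and it lay at -154 in Ltbp2 and -95 in Tgfbr3. Tgfb2 had the E-box CACGTG, present in 6.42% of promoters, and no member had TATAAA, present in 14.2%. The last 4 motifs were added after the sequences had been seen. GC content was 47.7% for Tgfb3, 60.0% for Ltbp1, 63.3% for Ltbp2 and 69.7% for Tgfbr3, beside a median of 51.7% over all promoters. Ltbp4 and Tgfbr1, which are not shown, had 71.0% and 74.7%, and each held 3 GC boxes. The share of all promoters with a GC box was not matched for GC content. A match is a stretch of letters and not a bound site, and a missing one says only that those letters are not in this window.

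One array stood apart from the others of its dose. Replicate 2 at 10 µg/ml had an SD of log2 ratios over all probe sets of 0.170, against 0.0967 and 0.0881 for the other arrays of that dose. The vehicle arrays ran between 0.0869 and 0.0918, the 1 µg/ml arrays between 0.120 and 0.143, and the 50 µg/ml arrays between 0.166 and 0.199. Values of members without that array are given where they differ in call.

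Of the ligands, Tgfb1 is the form most studied in fibrosis. Its log2 ratio was -0.02, 0.04 and 0.09 in vehicle, 0.21, 0.19 and -0.16 at 1 µg/ml, 0.11, -0.04 and 0.0076 at 10 µg/ml, and -0.08, -0.03 and -0.0076 at 50 µg/ml. The groups overlapped at every dose, and the array that lay lowest of all 12 was the third at 1 µg/ml. Tgfb1 differed from vehicle by 0.04 ± 0.08, -0.01 ± 0.08 and -0.08 ± 0.08 at 1, 10 and 50 µg/ml (standard error of the fit, n = 3 arrays a group), the smallest of the 9 members at 50 µg/ml.

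Tgfb2 is the ligand that depends most on betaglycan for binding. It read 0.09, -0.06 and -0.05 in vehicle, 0.29, 0.35 and 0.22 at 1 µg/ml, 0.18, -0.14 and 0.05 at 10 µg/ml, and -0.18, -0.30 and -0.16 at 50 µg/ml. All 3 arrays at 1 µg/ml lay above all vehicle arrays, and all 3 at 50 µg/ml lay below them, while those at 10 µg/ml spread across the vehicle range. The differences from vehicle were 0.29 ± 0.08 at 1 µg/ml, 0.04 ± 0.08 at 10 µg/ml and -0.21 ± 0.08 at 50 µg/ml, none past the threshold. Without replicate 2 of 10 µg/ml, with both differences as given, Tgfb2 passed at 1 and at 50 µg/ml. At 1 µg/ml it also passed without replicate 1 of 10 µg/ml, without replicate 2 of 50 µg/ml, with array weights, with the compared groups alone and with the replicate block.

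Tgfb3, a ligand that mouse palate formation needs, was lower at the top dose. Its values were 0.13, 0.06 and -0.0006 in vehicle, 0.0006, 0.02 and 0.0023 at 1 µg/ml, -0.14, -0.04 and 0.06 at 10 µg/ml, and -0.51, -0.47 and -0.47 at 50 µg/ml. The 50 µg/ml arrays were close together and lay below every other array, and the other 3 groups overlapped. Tgfb3 was at 68.5% of vehicle at 50 µg/ml, a difference of -0.54 ± 0.05, against -0.10 ± 0.05 at 10 µg/ml and -0.05 ± 0.05 at 1 µg/ml.

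**Figure D1:**
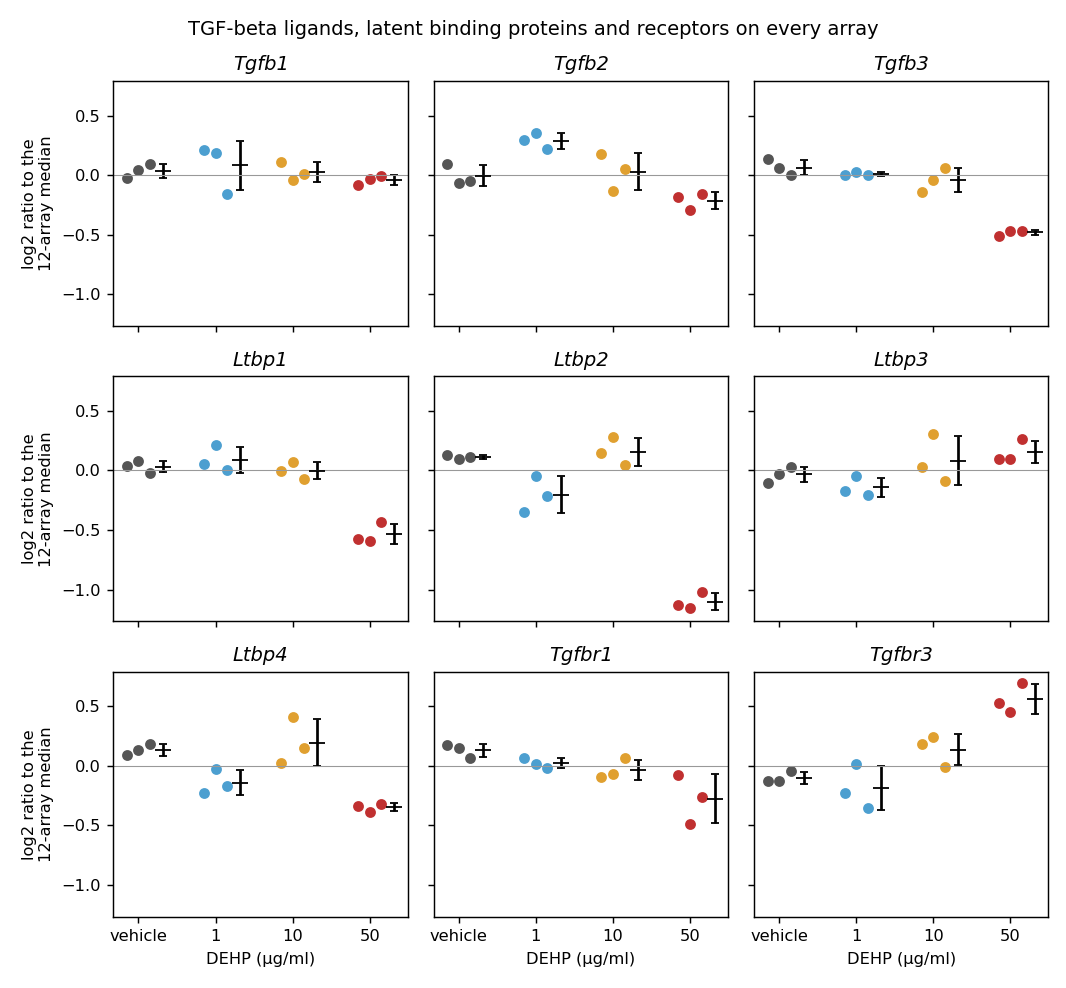
Log2 ratio to the 12-array median (vertical axis) for each measured member on every array, by DEHP dose with vehicle at the left, with points for arrays and a bar for the mean ± SD of 3. The 50 µg/ml points of Ltbp2 lie between -1.16 and -1.02 and those of Tgfbr3 between 0.45 and 0.70, away from all other groups, while those of Tgfb1 overlap vehicle.

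The latent binding proteins held the largest difference of the family. Ltbp1 is the classical carrier that is bonded to the propeptide. It read 0.04, 0.08 and -0.02 in vehicle, 0.05, 0.21 and 0.0018 at 1 µg/ml, -0.0018, 0.07 and -0.07 at 10 µg/ml, and -0.57, -0.60 and -0.43 at 50 µg/ml. The low dose arrays overlapped vehicle, and the 50 µg/ml arrays lay apart below all others. Ltbp1 stood at 67.6% of vehicle at 50 µg/ml, a difference of -0.57 ± 0.07, with 0.06 ± 0.07 at 1 µg/ml and -0.03 ± 0.07 at 10 µg/ml.

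Ltbp2 is a microfibril protein of elastic tissue that, unlike its relatives, does not bind latent TGF-beta. Its log2 ratios were 0.13, 0.10 and 0.11 in vehicle, -0.35, -0.04 and -0.21 at 1 µg/ml, 0.15, 0.28 and 0.04 at 10 µg/ml, and -1.13, -1.16 and -1.02 at 50 µg/ml. Its arrays were below vehicle at the lowest and the highest dose without overlap, and overlapped vehicle at the dose between. The difference from vehicle was -0.32 ± 0.08 at 1 µg/ml and -1.22 ± 0.08 at 50 µg/ml, both past the threshold, and 0.04 ± 0.08 at 10 µg/ml. The call at 1 µg/ml was lost when any 1 of 7 arrays was left out, namely each vehicle array, replicates 1 and 3 of 1 µg/ml, replicate 1 of 10 µg/ml and replicate 1 of 50 µg/ml, with differences between -0.33 and -0.24. At 50 µg/ml Ltbp2 kept its call under all 18 alternatives, but quantile normalization applied again brought the difference to -0.79. That step was run on the log2 ratios and gives every array the same spread. It therefore shrinks differences of the widely spread 50 µg/ml arrays by its design, here and below.

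Ltbp3 carries latent TGF-beta and is needed for bones and teeth in mouse and human. It read -0.10, -0.03 and 0.03 in vehicle, -0.18, -0.05 and -0.20 at 1 µg/ml, 0.03, 0.31 and -0.09 at 10 µg/ml, and 0.10, 0.10 and 0.26 at 50 µg/ml. The 50 µg/ml arrays lay above vehicle without overlap, yet the difference of 0.19 ± 0.09 did not pass. The differences at 1 and 10 µg/ml were -0.11 ± 0.09 and 0.12 ± 0.09, with overlap.

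Ltbp4, which helps build elastic fibres in mouse and human lung, was lower at 50 µg/ml. It read 0.09, 0.13 and 0.18 in vehicle, -0.23, -0.02 and -0.17 at 1 µg/ml, 0.02, 0.41 and 0.15 at 10 µg/ml, and -0.34, -0.38 and -0.32 at 50 µg/ml. As with Ltbp2, its arrays lay below vehicle at 1 and 50 µg/ml without overlap and overlapped it at 10 µg/ml, where replicate 2 was the highest of the 12. The difference was -0.28 ± 0.08 at 1 µg/ml, which did not pass, 0.06 ± 0.08 at 10 µg/ml, and -0.48 ± 0.08 at 50 µg/ml, which is 71.6% of vehicle. Ltbp4 passed at 1 µg/ml also without replicate 2 of 10 µg/ml and with the compared groups alone, where its difference was the same, with array weights (-0.27) and under repeated quantile normalization (-0.33).

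Tgfbr1 encodes the type I receptor kinase that phosphorylates SMAD2 and SMAD3. It read 0.17, 0.15 and 0.07 in vehicle, 0.07, 0.02 and -0.02 at 1 µg/ml, -0.09, -0.07 and 0.06 at 10 µg/ml, and -0.08, -0.49 and -0.27 at 50 µg/ml. No dose overlapped vehicle, although at 1 and 10 µg/ml the nearest arrays were almost level with the lowest vehicle array, and replicate 1 at 50 µg/ml lay within the 10 µg/ml range. The differences were -0.11 ± 0.08, -0.16 ± 0.08 and -0.41 ± 0.08 at 1, 10 and 50 µg/ml, and the last was past the threshold, at 75.5% of vehicle. The SD of the 3 arrays at 50 µg/ml was 0.21 for Tgfbr1, the widest of the 9 members at that dose.

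Tgfbr3 encodes betaglycan, the co-receptor that presents ligand and whose shed form can sequester it. It read -0.13, -0.13 and -0.04 in vehicle, -0.23, 0.01 and -0.35 at 1 µg/ml, 0.18, 0.24 and -0.01 at 10 µg/ml, and 0.52, 0.45 and 0.70 at 50 µg/ml. The arrays at 10 and at 50 µg/ml lay above all vehicle arrays, and those at 1 µg/ml overlapped vehicle. The difference was 0.66 ± 0.09 at 50 µg/ml and past the threshold, 0.24 ± 0.09 at 10 µg/ml and -0.09 ± 0.09 at 1 µg/ml, neither of which passed.

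**Figure D2:**
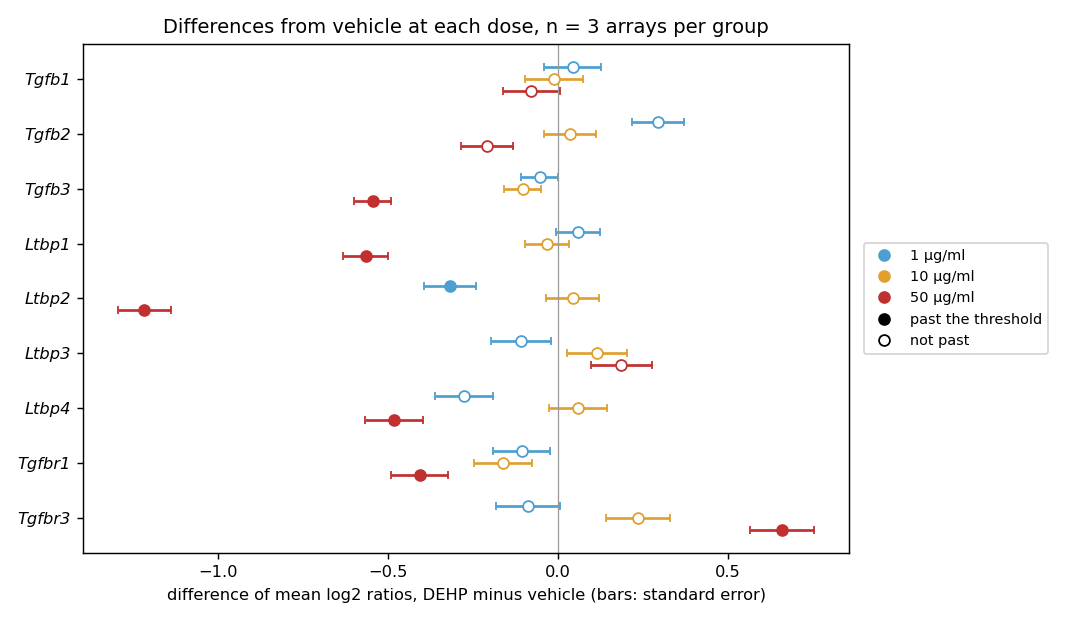
Difference of mean log2 ratios, DEHP minus vehicle (horizontal axis), for the 9 members at 3 doses, with standard errors and n = 3 arrays a group; filled points are past the threshold. Filled points are found for 6 members at 50 µg/ml and for Ltbp2 at 1 µg/ml, and none are filled at 10 µg/ml.

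The arrays of a dose and of vehicle did not overlap for 8 of the 9 members at 50 µg/ml, where this holds for 36.0% of all genes. At 10 µg/ml it held for 2 members, Tgfbr1 and Tgfbr3, beside 11.2% of all genes. For 1 µg/ml the number was 4, Tgfb2, Ltbp2, Ltbp4 and Tgfbr1, beside 30.8% of all genes. The median difference over the 9 members was -0.41 at 50 µg/ml, 0.04 at 10 µg/ml and -0.09 at 1 µg/ml, and over all genes it was 0.02, -0.0057 and -0.0034. The 3 comparisons share the vehicle arrays. Over the 12 arrays the SD of the log2 ratio ran between 0.11 for Tgfb1 and 0.54 for Ltbp2.

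Past the threshold at 10 µg/ml were 0 of the 9 members and 0% of all genes in either direction, by limma. At an unadjusted p under 0.05 there were 1 member and 899 genes, and with array weights limma called 90 genes and 0 members. The threshold was passed by 1 member at 1 µg/ml, Ltbp2, which was lower, against 1.74% of all genes lower and 2.51% higher. Without replicate 2 of 10 µg/ml the count at 1 µg/ml was 3 members, and at 50 µg/ml it was 7.

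Doses were also set against each other. At 50 against 10 µg/ml, Ltbp1, Ltbp2, Ltbp4 and Tgfb3 were lower and Tgfbr3 was higher, where 6.85% of all genes were lower and 7.75% higher. Ltbp2 had the largest of these differences, -1.26 ± 0.08, and Tgfbr3 differed by 0.42 ± 0.09. Quantile normalization applied again brought Ltbp2 to -0.79, Ltbp1 from its -0.53 ± 0.07 to -0.33 and Tgfb3 from its -0.44 ± 0.05 to -0.28, all still called, and Tgfbr3 to 0.27, a call lost. Tgfb2 (-0.24 ± 0.08) passed without replicate 2 of 10 µg/ml (-0.33), with array weights (-0.34) and with the replicate block, and Tgfbr1 (-0.24 ± 0.08) passed without replicate 1 of 50 µg/ml (-0.34). At 50 against 1 µg/ml, Ltbp1, Ltbp2, Tgfb2, Tgfb3 and Tgfbr1 were lower and Ltbp3 and Tgfbr3 were higher, beside 13.4% of all genes lower and 11.5% higher. Tgfb2 differed by -0.50 ± 0.08 in that comparison and Tgfbr3 by 0.75 ± 0.09. The call of Ltbp3 (0.30 ± 0.09) was lost under repeated quantile normalization (0.26) and without replicate 1 or 3 of 1 µg/ml or replicate 3 of 50 µg/ml (0.24 to 0.28). The call of Tgfbr1 (-0.30 ± 0.08) was lost without replicate 1 or 2 of 1 µg/ml or replicate 2 of 50 µg/ml (-0.30 to -0.19). For Ltbp2 the repeated quantile normalization brought the difference of -0.90 ± 0.08 to -0.41. Ltbp4 (-0.21 ± 0.08) passed without replicate 2 of 10 µg/ml and with the compared groups alone, its difference unchanged, and Tgfb1 (-0.12 ± 0.08) passed without replicate 3 of 1 µg/ml (-0.24). At 10 against 1 µg/ml, Ltbp2 (0.36 ± 0.08), Ltbp4 (0.34 ± 0.08) and Tgfbr3 (0.32 ± 0.09) were higher and Tgfb2 (-0.26 ± 0.08) was lower, beside 4.77% of all genes higher and 9.20% lower. The call of Ltbp2 was lost with the compared groups alone. Array weights brought Ltbp4 to 0.20. Ltbp4 lost its call with the compared groups alone too and without replicate 1 or 3 of 1 µg/ml or replicate 2 of 10 µg/ml (0.23 to 0.32). Tgfbr3 and Tgfb2 lost theirs under 8 and 12 of the 18 alternatives, among them leaving out replicates 1 and 3 of 1 µg/ml and replicate 2 of 10 µg/ml in turn, with differences of 0.24 to 0.32 and of -0.29 to -0.18 without the arrays that ended the call. Ltbp3 (0.22 ± 0.09) passed without replicate 3 of 10 µg/ml (0.31).

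Marker lists of cell types were read on the same arrays. At 50 µg/ml 14 of 15 macrophage markers were lower, with a median difference of -1.24, and the list's median on an array was between -1.17 and -0.96, against 0.17 to 0.26 in vehicle. At the lowest dose, 1 µg/ml, 2 of the 15 were lower, where 4.25% of all genes were called in either direction. All 15 differences at 1 µg/ml were below 0, with a median of -0.27. The list's median on an array there ran between -0.25 and 0.10, below all vehicle arrays. Endothelial markers were higher in 5 and lower in 1 of 10 at 50 µg/ml, with array medians between 0.21 and 0.30 against -0.03 to 0.04 in vehicle, and lower in 3 of 10 at 1 µg/ml, with array medians between -0.43 and -0.18. Of 13 heart muscle cell markers, 7 were higher and 1 lower at 50 µg/ml, with array medians between 0.04 and 0.18, against -0.22 to -0.01 in vehicle. At 10 µg/ml 0 of these passed, and their median difference was 0.20, beside 0.24 at 50 µg/ml. The array medians at 10 µg/ml, 0.02 to 0.05, lay above all vehicle arrays. Vehicle replicate 1, at -0.01, was close to them, and replicates 2 and 3 lay lower, at -0.14 and -0.22. By limma 8 of the 13 had an unadjusted p under 0.05 at 10 µg/ml, beside 899 of 14324 genes. These 8 are read against the same 3 vehicle arrays and are not independent. Epicardial markers were higher in 4 of 8 at 50 µg/ml, with array medians between 0.16 and 0.27 against -0.08 to -0.01 in vehicle. Of the smooth muscle and pericyte markers, 3 were higher and 4 lower of 9 at that dose, with array medians between -0.04 and 0.0054, against -0.04 to 0.10 in vehicle. Fibroblast markers were lower in 3 of 12 and higher in 0 at 50 µg/ml, with array medians between -0.03 and 0.03, against 0.01 to 0.02 in vehicle. At 1 µg/ml 2 of the 12 were lower. At that dose 1 heart muscle cell marker was higher, and 0 epicardial or smooth muscle and pericyte markers passed. Ratios do not tell which markers are near background, and the part of these lists in the members' differences was not tested.

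**Figure D3:**
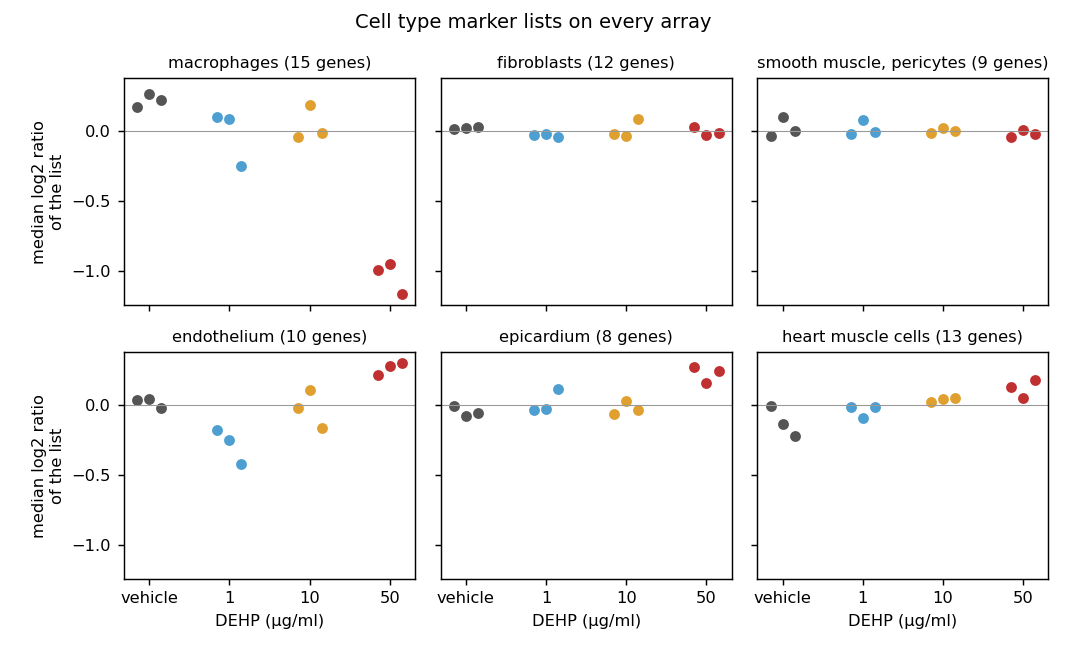
Median log2 ratio of each of 6 cell type marker lists (vertical axis) on every array, by DEHP dose with vehicle at the left; each point is 1 array. Macrophage markers at 50 µg/ml lie between -1.17 and -0.96, below all other arrays, while the fibroblast lists of 50 µg/ml and vehicle lie within 0.03 of 0.

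The other genes of the pathway were read from 8 lists, of which 107 of 126 genes were measured. At 50 µg/ml 21 were higher and 18 lower, with a median difference of 0.02, the same as the 0.02 of all genes to that precision. Called in either direction were 36.5% of these 107 genes, against 17.6% of all genes at that dose, which is also the background for the marker lists above and the lists below. Like the members, the lists were chosen with earlier results of these data known, so nothing is read from these shares. Adjusted p-values of listed genes come from the limma fit over all genes and are given as description. At 10 µg/ml 0 of the 107 passed, with 10 at an unadjusted p under 0.05, beside 899 of all 14324 genes. Against these, 4 were higher and 7 lower at 1 µg/ml, 10.3% of them, where 4.25% of all genes were called.

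Of 15 measured genes for processing and activation of latent TGF-beta, 7 were higher and 3 lower at 50 µg/ml, with a median difference of 0.17. Plau, the urokinase that generates plasmin, read -0.81, -0.96 and -1.08 at 50 µg/ml, against 0.38, 0.40 and 0.19 in vehicle, and fell by 1.27 ± 0.09 (adjusted p = 1.01e-06). Tgm2, the transglutaminase that cross-links latent complexes to matrix, read 0.86, 0.75 and 0.82 at 50 µg/ml, against -0.05, 0.21 and -0.08 in vehicle, and rose by 0.78 ± 0.08 (adjusted p = 2.88e-05). The arrays of both groups stood apart for either gene. Mmp14, a membrane protease able to release the ligand, rose by 0.44 ± 0.05 (adjusted p = 8.14e-05). Furin, which cuts the propeptide, differed by 0.21 ± 0.07 and did not pass (adjusted p = 0.0711), though it did without replicate 2 of 1 µg/ml or of 10 µg/ml and with the compared groups alone, its difference unchanged, and with array weights (0.22). Of the 15, 3 fell at 1 µg/ml, Mmp9 by 0.51 ± 0.10 (adjusted p = 0.0161), Plau by 0.41 ± 0.09 (0.0242) and Nrros, a holder of latent TGF-beta on macrophage lineage cells, by 0.34 ± 0.09 (0.0448). The calls of Mmp9 and Plau were each lost without vehicle replicate 1 or 2, without replicate 3 of 1 µg/ml, and without replicate 1 (Mmp9) or replicate 2 (Plau) of that dose, with differences between -0.50 and -0.44 and between -0.39 and -0.35. That of Nrros was lost without any one vehicle, 1 µg/ml or 50 µg/ml array, between -0.38 and -0.29.

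Among 9 measured matrix proteins that hold the latent complex or the ligand, 3 were higher and 2 lower at 50 µg/ml. Mfap5, a microfibril protein that is also in the fibroblast marker list, read -0.98, -0.82 and -0.92 at 50 µg/ml, against 0.21, 0.22 and 0.26 in vehicle. It fell by 1.14 ± 0.06 (adjusted p = 1.21e-07). Fmod, fibromodulin, which binds TGF-beta, read 0.67, 0.97 and 0.94 at 50 µg/ml, against 0.04, 0.02 and -0.0046 in vehicle, and rose by 0.84 ± 0.10 (adjusted p = 0.000104), or by 0.56 under repeated quantile normalization. Eln, elastin, rose by 0.43 ± 0.07 (adjusted p = 0.00108), and Fbn1, the fibrillin to which latent binding proteins attach, differed by -0.11 ± 0.05 and did not pass (adjusted p = 0.144). At 1 µg/ml Mfap5 fell by 0.26 ± 0.06 (adjusted p = 0.0322), a call lost without any one of the 3 vehicle or 3 treated arrays (-0.27 to -0.23).

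The pseudoreceptor and receptors of related ligands gave 0 calls among 11 by limma at 50 µg/ml. At an unadjusted p under 0.05 there were 3 of the 11, beside 4172 of all 14324 genes, a similar share. Bambi, a decoy receptor, differed by 0.13 ± 0.05 (adjusted p = 0.123). Of 15 SMAD genes and direct regulators, 1 was higher and 3 were lower at that dose. Smad3, which carries the signal of the activated receptor, rose by 0.29 ± 0.07 (adjusted p = 0.0176). Zfyve9, the anchor that brings SMADs to the receptor, fell by 0.27 ± 0.07 (0.0197), and Tgif1, a SMAD corepressor, fell by 0.25 ± 0.07 (0.0311). Smad2 differed by -0.05 ± 0.05 and Smad7, the inhibitory SMAD induced by the pathway, by 0.04 ± 0.08 (adjusted p = 0.606 and 0.810). Smad3 lost its call without replicate 1 or 3 of vehicle or of 50 µg/ml (0.27 to 0.29), Zfyve9 without vehicle replicate 1 or 2 or replicate 2 of 50 µg/ml (-0.27 to -0.22), and Tgif1 without any one array of either group (-0.26 to -0.24).

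Genes that TGF-beta is known to induce went both ways, with 6 higher and 6 lower of 26 measured at 50 µg/ml and a median of 0.03. Tgfbi, a secreted adhesion protein named for its induction, read -0.65, -0.57 and -0.50 at 50 µg/ml, against 0.08, 0.14 and 0.0050 in vehicle, and fell by 0.65 ± 0.06 (adjusted p = 6.51e-06). Ccn2, the connective tissue growth factor, read -0.25, -0.18 and -0.21 at 50 µg/ml, against 0.17, 0.12 and 0.16 in vehicle, and fell by 0.37 ± 0.05 (adjusted p = 0.000201). Nox4, an oxidase induced in fibroblasts, rose by 0.58 ± 0.06 (adjusted p = 3.79e-05), and Pmepa1, a feedback inhibitor of the pathway, rose by 0.29 ± 0.08 (0.0344). The call of Pmepa1 was lost without vehicle replicate 1 or 2 or replicate 2 or 3 of 50 µg/ml (0.26 to 0.28). At 1 µg/ml 2 of the 26 were higher and 2 lower, where 4.25% of all genes were called. The 3 with the smallest p are named, which leaves out 1 of the lower genes. Ccn2 fell at 1 µg/ml too, by 0.28 ± 0.05 (adjusted p = 0.00885). Ccn1, a matricellular relative of it, rose by 0.31 ± 0.05 (0.00793) and Edn1, the endothelin-1 precursor, rose by 0.56 ± 0.10 (0.00826). Edn1 read 0.42, 0.83 and 0.40 at 1 µg/ml and -0.44, -0.50 and -0.56 at 50 µg/ml, against 0.05, -0.08 and -0.01 in vehicle, and at 50 µg/ml it fell by 0.49 ± 0.10 (adjusted p = 0.00322). Skil, Eng and Thbs1 are not analysed here.

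Of 15 other ligands, 1 was higher and 1 lower at 50 µg/ml, 13.3% of the list, beside 17.6% of all genes. Inhba, the activin A subunit, read -0.87, -0.87 and -0.64 at 50 µg/ml, against 0.31, 0.02 and 0.10 in vehicle, and fell by 0.94 ± 0.09 (adjusted p = 1.37e-05). Gdf10 rose by 0.15 ± 0.04 (0.0263), a call lost with the compared groups alone and without any one vehicle array or replicate 1 or 2 of 50 µg/ml (0.13 to 0.16). Bmp2 rose by 0.37 ± 0.09 at 1 µg/ml (adjusted p = 0.0441), a call lost under repeated quantile normalization (0.42) and without any one vehicle or 1 µg/ml array or replicate 3 of 50 µg/ml (0.28 to 0.43). Secreted antagonists showed 1 higher and 2 lower of 9 at 50 µg/ml. Grem1, which traps bone morphogenetic proteins (BMPs), read -1.24, -1.02 and -0.86 at 50 µg/ml, against 0.07, 0.30 and 0.28 in vehicle, and fell by 1.25 ± 0.09 (adjusted p = 1.22e-06). Fst, follistatin, which traps activin, fell by 0.69 ± 0.06 (6.51e-06) and Nbl1, another BMP antagonist, rose by 0.46 ± 0.09 (0.00381).

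Genes known to be induced by BMPs were 2 higher and 1 lower of 7 at 50 µg/ml. Id2, an inhibitor of basic helix-loop-helix factors, read 0.57, 0.50 and 0.38 at 50 µg/ml, against -0.15, -0.29 and -0.20 in vehicle, and rose by 0.70 ± 0.07 (adjusted p = 1.58e-05). Its relative Id4 rose by 0.55 ± 0.08 (0.000357). Id1 fell by 0.16 ± 0.05 (0.0490), a call lost under 12 of the 18 alternatives, among them the replicate block and leaving out any one vehicle, 1 µg/ml or 50 µg/ml array or replicate 1 of 10 µg/ml (-0.19 to -0.14). The lowest dose also moved both, as Id2 rose by 0.31 ± 0.07 (adjusted p = 0.0230) and Id1 fell by 0.25 ± 0.05 (0.0242) at 1 µg/ml. Both calls were lost without any one vehicle or 1 µg/ml array, with differences of 0.28 to 0.35 for Id2 and -0.26 to -0.23 for Id1.

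**Figure D4:**
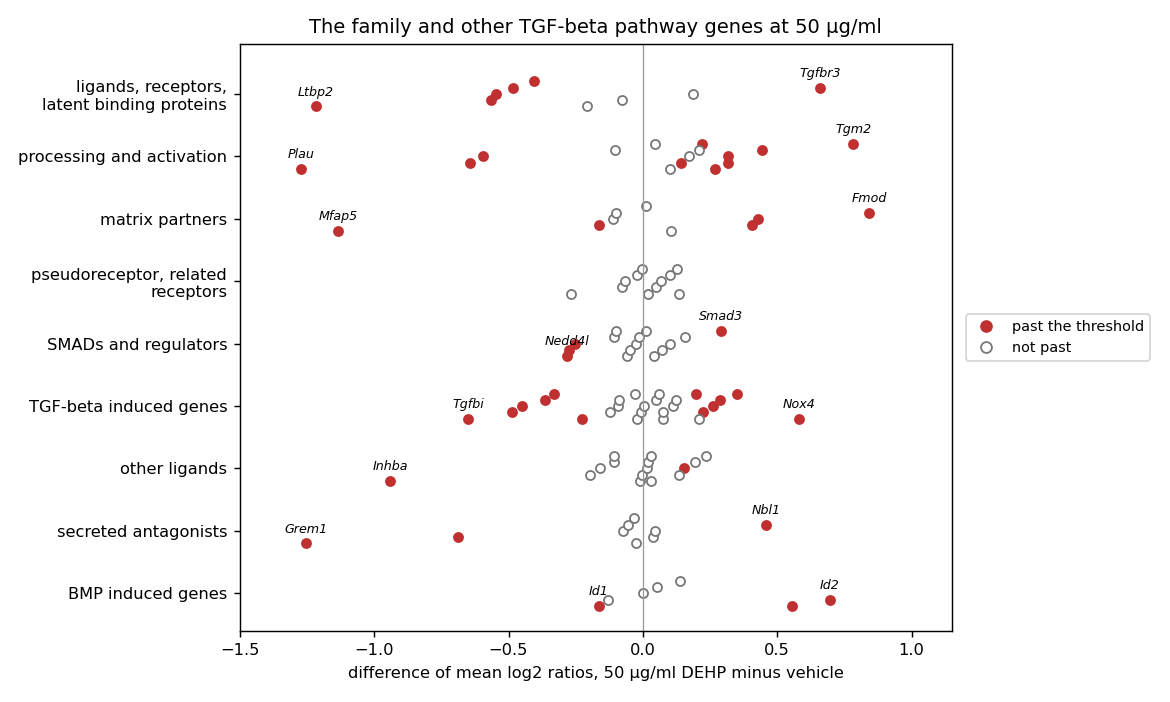
Difference of mean log2 ratios, 50 µg/ml DEHP minus vehicle (horizontal axis), for the 9 family members and for each of 8 lists of other pathway genes; each point is 1 gene, filled where it is past the threshold, and the outermost called genes are named. Points spread to both sides in most lists, with Plau, Grem1, Ltbp2 and Mfap5 lowest, between -1.27 and -1.14, and no point is filled among the related receptors.

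For each called member, the genes whose pattern over the 12 arrays was most like it were found by the root mean square difference of log2 ratios, each gene centred on its own mean. Ltbp2 was nearest to Txnip (0.113), Laptm5 (0.138) and Ramp3 (0.144), where the median over all genes was 0.528, and Laptm5 is 1 of the 15 macrophage markers. Ltbp1 was nearest to Atp2b4 (0.0664), Zfp111 (0.0694) and Ddah1 (0.0731), with a median of 0.280. Ltbp4 lay nearest to Hk3 (0.0638), Trpv2 (0.0742) and Sh3bp5l (0.0776), with a median of 0.258. These are measures of likeness on shared arrays and carry no test. A gene flat over the arrays would lie at the member's own spread, 0.51 for Ltbp2 and 0.26 for Ltbp1, near the medians given. Distances below the medians thus say little by themselves. Tgfb3 was nearest to Fgd4 (0.0540), Zscan21 (0.0625) and Hmgxb4 (0.0676), with a median of 0.245. Tgfbr1 had Pold3 (0.0522), Tstd2 (0.0563) and Eif2ak3 (0.0605) nearest, with a median of 0.201. Tgfbr3 had Tp53i11 (0.0947), Cacna1g (0.110) and Kif1a (0.112) nearest, with a median of 0.310, and these 3 were higher at 50 µg/ml by 0.49, 0.66 and 0.79. Genes chosen this way share the member's difference at 50 µg/ml by the choice itself, and nothing is read from it.

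The GRCr8 annotation was read for 2 pairs of a latent binding protein and a ligand on the same chromosome. Their promoter windows have their lowest coordinates at 110257249 (Ltbp2) and 111456897 (Tgfb3), and at 91759758 (Ltbp4) and 90324062 (Tgfb1). On chromosome 6, 32 genes lie between Ltbp2 and Tgfb3, both lower at 50 µg/ml, and of 12 measured 1 was higher, Fos by 1.16, and 0 were lower, with a median difference of 0.03. On chromosome 1, 39 genes lie between Ltbp4, which was lower, and Tgfb1, which did not pass. Of 24 measured 0 passed, with a median of 0.02. Over all genes 8.75% were higher and 8.84% lower at 50 µg/ml, and nothing is read from these small counts. Fos was named after its value was seen.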

How the data were processed

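Gene expression was measured on 12 Affymetrix arrays, 1 per culture, from 5 µg of total RNA each. RMA, a background correction, quantile normalization and probe summary, made the expression values, per the submitters' processing notes, with no version given. What the authors deposited are linear ratios to the median of a probe set over the 12 arrays, found from the values: the midpoint of the 6th and 7th log2 values was 0 within 1e-06. Array medians were 0.994 to 1.01. Depth does not apply, and the number of arrays limits the precision.

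Ratios were turned into log2 ratios. Of 27342 probe sets, 15097 had 1 gene symbol, 323 several and 11922 none in the platform annotation, and 15067 matched GRCr8 by Entrez identifier. Probe sets of a gene were averaged (499 of 14324 genes had several). Group means were fitted over all arrays with limma 3.58.1 in R 4.3.3, with empirical Bayes moderation (8 residual degrees of freedom, median residual SD 0.08). Tests were two-sided, with Benjamini-Hochberg adjustment over all genes. Exact permutation of 3 against 3 arrays gives no p below 0.1. The fit was tested on simulated data. The design had assumed log2 levels, so dim probe sets were not filtered out.

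The members and lists were chosen with earlier results of these data known. Genes named were the members, up to 3 called genes with the smallest p per list and dose, a panel of 13 genes (1 of them is not reported here), and the 3 genes most like each called member. Some genes stand in more than 1 list. Replicate numbers were not taken to pair the samples. Deviations from group means correlated between -0.23 and 0.43 over 18 same-numbered pairs, and 6 of these were above 0.1. With 3 arrays a group this cannot exclude a pairing, so a replicate block was among the alternatives. With it 742 genes passed at 1 µg/ml, where 608 were reported. Alternatives were quantile normalization again, median centring, robust moderation, array weights and the compared groups alone. Others were a replicate block, probe sets on their own and leaving out each array. The repeated quantile normalization ran on log2 ratios, not on levels, and gives all arrays the same spread. Before it, the SD was 0.166 to 0.199 at 50 µg/ml and 0.0869 to 0.0918 in vehicle. Smaller differences at 50 µg/ml are thus built into that alternative.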

Additional observations from a re-analysis of the deposited data

How the results depend on the processing

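The alternatives were run on the members in all comparisons and on the named pathway genes against vehicle, and not on the other listed genes singly. The direction of each call among these was kept under the 18 alternatives, as were the 6 member calls at 50 µg/ml, to which Tgfb2 was added with the compared groups alone and without replicate 2 of 10 µg/ml. Over single genes and alternatives, 374 member values kept and 40 lost their call in all comparisons, and 480 values of named pathway genes kept and 78 lost theirs against vehicle. Quantile normalization applied again gave 15 genes at 10 µg/ml against vehicle, where 0 were reported, 1139 at 1 µg/ml against vehicle (608 reported) and 2321 at 50 against 1 µg/ml (3562 reported). It gave 2 members and 19 pathway genes at 1 µg/ml, where 1 and 11 were reported, and 1 pathway gene at 10 µg/ml, where 0 were. Array weights gave 90 genes at 10 µg/ml and 1772 at 1 µg/ml against vehicle, 3457 at 50 against 10 µg/ml (2091 reported) and 3155 at 10 against 1 µg/ml (2001 reported), with 3 members and 22 pathway genes at 1 µg/ml and 4 pathway genes at 10 µg/ml. The compared groups alone gave 1661 genes, 3 members and 21 pathway genes at 1 µg/ml, 1312 genes at 50 against 10 µg/ml and 697 at 10 against 1 µg/ml. With the replicate block, 2 members passed at 1 µg/ml, Tgfb2 being added, and Id1 lost its call at 50 µg/ml; it moved no other count of calls by over 1.5 times.

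Leaving out each array in turn gave 1731 to 3153 genes at 50 µg/ml against vehicle (2520 reported), 0 to 1 at 10 µg/ml, the 1 without vehicle replicate 1, and 176 to 1282 at 1 µg/ml. At 50 and at 1 µg/ml the lowest count came without vehicle replicate 1 and the highest without replicate 2 of 10 µg/ml. Between doses it gave 1534 to 2531 at 50 against 10 µg/ml, 2432 to 4370 at 50 against 1 µg/ml and 820 to 2694 at 10 against 1 µg/ml. Pathway genes past the threshold were 23 (without vehicle replicate 1) to 41 at 50 µg/ml (39 reported), 0 at 10 µg/ml in each case, and 3 to 18 at 1 µg/ml. Members past it were 6 to 7, 0, and 0 to 3 at 50, 10 and 1 µg/ml. The cause of these changes was not tested. Signal over background is unknown for every probe set, and the planned filter on dim probe sets could not be made, since ratios keep no level.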
